A study of Mus musculus with 60 samples.

Results

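Homeobox genes encode transcription factors with a shared DNA-binding fold, and 50 of them known for regional or cell-class identity in the brain were followed here across cortex, striatum and cerebellum of mice with and without paraoxonase 2 (PON2), a lactonase of intracellular membranes. The 50 members were a fixed list of gene symbols, chosen with earlier results of these data known. Every one was found, on 1 row each, among the 20423 genes of the deposited tables. RNA was sequenced from 12 groups of 5 libraries, for 60 in all: homozygous PON2-deficient females and males and wild-type females and males, each in the 3 regions. All mice were littermates of heterozygous crosses on a C57BL/6J background, bred in rolling cohorts, went through behavioural tests and were killed at 3 to 4 months of age, so every group shares that handling. Each library was made from RNA of pulverised bulk tissue, and in such tissue fewer cells of a type and less RNA per cell cannot be told apart. The labels do not say whether libraries with equal replicate numbers in different regions come from 1 mouse, or which cohort a mouse belonged to, so the p-values speak of the spread among these libraries. Libraries held between 26.09 and 28.13 M counts, and levels are given as CPM, a gene's counts scaled to the same library total in every sample. Pon2 itself had 3.45 ± 0.917 CPM in PON2-deficient cortex and 55.5 ± 2.85 CPM in wild-type cortex (SD, n = 10 each), and was called lower in PON2-deficient libraries of all 3 regions, by log2 differences of -4.01 in cortex, -3.74 in striatum and -5.82 in cerebellum. Of 10 marker genes for each tissue's main neurons, none was under 1 CPM on average in its own region, while Drd1 in cerebellum and Gabra6 and Fat2 in cortex were under 1 CPM in both genotypes. None of the 10 cortical excitatory markers in striatum, and none of the 10 striatal markers in cortex, was under 1 CPM in either genotype. Median sums of the cortical markers were 4409 CPM in wild-type cortex and 2126 CPM in wild-type striatum (4300 and 2050 CPM in PON2-deficient). Those of the striatal markers were 1254 and 7404 CPM (1173 and 7203 CPM). The part of neighbouring tissue in the members' levels was not tested.

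During development, homeobox factors are switched on in domains of the neural tube and instruct cells in the position they hold, and many neurons keep the factors of their birthplace for life. Emx, Otx and several Lhx genes mark the dorsal forebrain that forms the cortex, Dlx, Six3, Nkx2-1 and Meis2 mark the ventral forebrain that forms striatum and pallidum, and En, Irx, Barhl and the pair Lhx1 and Lhx5 mark midbrain, hindbrain and cerebellum. The TALE class (Meis, Pbx, Pknox, Tgif) supplies cofactors, and the POU class couples the homeodomain to a further DNA-binding domain.

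Promoter sequence is shown for 1 gene of each region, to let the start of a cortical, a striatal and a cerebellar regulator be compared. Each was the member with the largest ratio of its wild-type mean to the next region among those that qualified. A member qualified with 1 listed promoter that shared at most 15 bases with its own annotated exons. The Lhx1 stretch shared 1 such base. The Six3 stretch shared none but lies inside the annotated Six3 gene (chr17:85613608-85629302), so it is not upstream of the whole gene. The stretches are the 250 bases before the RefSeq start (GRCm38.p6), 5′ to 3′, with TAAT or its reverse complement ATTA, the core that most homeodomains bind, in capitals. Tshz3 encodes a teashirt zinc-finger homeobox repressor (chr7:36697868-36698117, plus strand), Six3 a SIX-class repressor of the anterior brain (chr17:85620584-85620833, plus strand) and Lhx1 a LIM-homeodomain factor of Purkinje cells (chr11:84525535-84525784, minus strand).
Tshz3: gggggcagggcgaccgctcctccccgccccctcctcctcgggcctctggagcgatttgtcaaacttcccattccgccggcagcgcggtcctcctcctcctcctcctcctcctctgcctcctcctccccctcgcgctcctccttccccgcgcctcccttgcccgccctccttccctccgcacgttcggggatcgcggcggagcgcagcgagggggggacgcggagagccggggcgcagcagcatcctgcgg
Six3: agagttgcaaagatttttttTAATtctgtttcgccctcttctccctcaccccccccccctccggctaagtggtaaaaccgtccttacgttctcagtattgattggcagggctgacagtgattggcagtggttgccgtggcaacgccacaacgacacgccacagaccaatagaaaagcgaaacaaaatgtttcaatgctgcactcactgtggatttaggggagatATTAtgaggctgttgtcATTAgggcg
Lhx1: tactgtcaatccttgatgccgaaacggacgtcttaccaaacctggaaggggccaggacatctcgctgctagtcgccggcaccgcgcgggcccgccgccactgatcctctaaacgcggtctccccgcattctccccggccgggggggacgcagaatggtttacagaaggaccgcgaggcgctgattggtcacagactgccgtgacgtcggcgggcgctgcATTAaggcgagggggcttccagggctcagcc
The Tshz3 stretch was 74% G and C and held 0 TAAT cores, the Six3 stretch was 48.8% G and C and held 3, and the Lhx1 stretch was 64.8% G and C and held 1. Sequences were listed for 38 of the 50 members, with 55 promoters in all. A TAAT core on either strand stood in 28 of the 55 (50.9%), against 54.9% of all 32841 promoters of the table. The longer TAATTA, which is its own reverse complement and contains both cores, stood in 0 of the 55, against 4.84% of all promoters. A ratio of observed to expected CpG of at least 0.6, a mark of CpG islands, was found in 35 (63.6%), against 34% of all promoters. Of the 55 stretches, 25 held more than 15 bases of an annotated exon of their own gene, so they are not all upstream sequence. A match or its lack describes these letters only.

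The libraries could be sorted by these 50 genes alone. Each of the 60 libraries correlated best with the mean profile of the other libraries of its own region, with r from 0.973 upwards over log2(CPM + 0.1) of the members, as a description with no test. The highest value with another region was 0.955, between striatum and cortex, and cerebellum libraries reached at most 0.263 with a forebrain region. The lowest own-region value was that of PON2-deficient striatum male 5, whose deposited precision weights averaged 0.0527 of the median of its region.

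In wild-type mice most members differed between regions, a pattern called the regional code here. The members were chosen with earlier results of these data known. Their counts beside the shares of all genes are therefore descriptions and no independent support. A gene was called when its adjusted p was under 0.05 by edgeR's quasi-likelihood test, with Benjamini-Hochberg adjustment over all genes, and it was assigned to a region when it was called higher there than in both of the others. By that rule 12 members were highest in cortex, where 12.4% of all 20387 tested genes were, 13 were highest in striatum (11.8% of all genes), and 19 were highest in cerebellum (29.6% of all genes). The remaining 6 had no single highest region. Without PON2-deficient striatum male 5 in the shared fit the counts were 12, 13, 20 and 5, since Tgif1 was then highest in cerebellum. Between cortex and striatum 37 of 50 members were called (14 higher and 23 lower in cortex), beside 43.3% of all genes. The 37 include Irx5, which was too low to be tested within cortex or striatum alone and entered this fit through cerebellum. En1 and Barhl1 entered in the same way and were not called in this comparison. Between cortex and cerebellum 44 were called (23 higher and 21 lower in cortex), beside 71.8% of all genes, and between striatum and cerebellum 46 (27 higher and 19 lower in striatum), beside 71.9%. With a log2 difference of at least 1 also required, 18, 32 and 33 members were called in those 3 comparisons, beside 7.51%, 24.9% and 26.3% of all genes. By direction, 22.3% of all genes were called higher in cortex than in striatum, 35.8% higher in cortex than in cerebellum and 35.6% higher in striatum than in cerebellum, and 4282, 7347 and 7404 of the 20387 genes were called lower in the same 3 comparisons. The median size of the log2 difference was 0.71, 1.96 and 1.73 for the members, and 0.21, 0.46 and 0.46 for all genes.

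**Figure D1:**
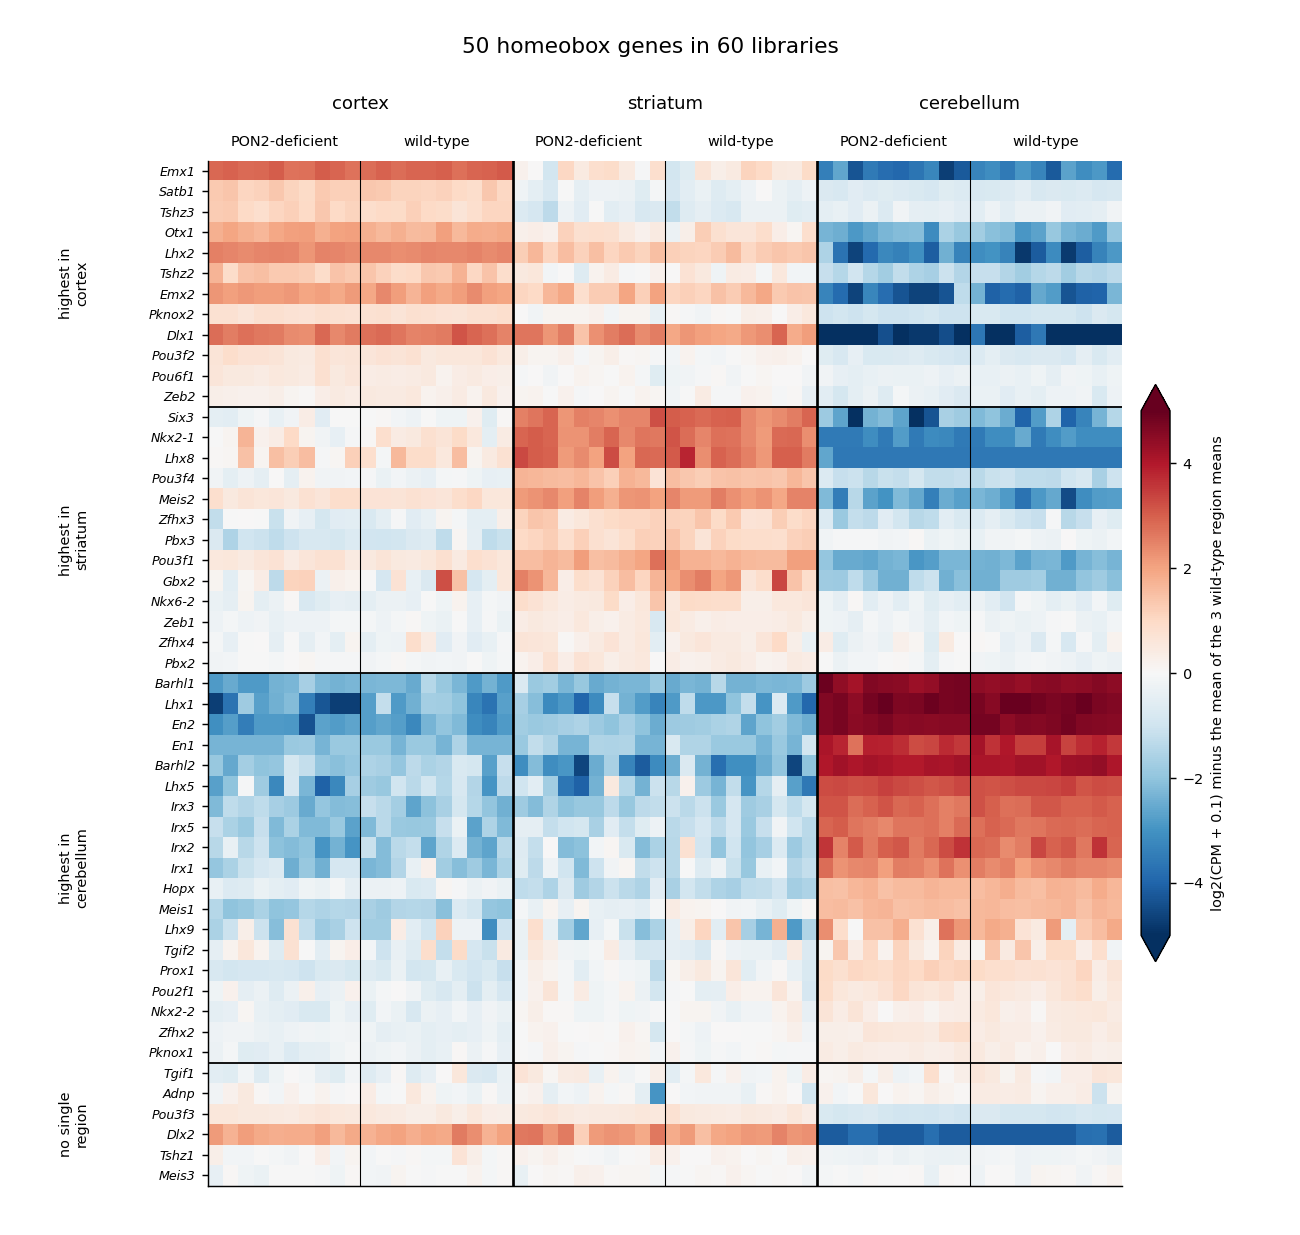
Level of each of the 50 members (rows, grouped by the wild-type region they were highest in) in each of the 60 libraries (columns), as log2(CPM + 0.1) minus the mean of the 3 wild-type region means of that gene, with red above and blue below. Within each region the PON2-deficient and wild-type blocks show the same pattern of rows, and the 12 cortical, 13 striatal and 19 cerebellar members form blocks of red in their own region.

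The cortical members were led by genes listed as regulators of the dorsal forebrain. The lists were chosen with earlier results of these data known, so counts by list, here and below, are descriptions and no independent support. Of the 9 genes listed for that role, 8 were called higher and 0 lower in cortex than in striatum, and 8 were called higher and 1 lower in cortex than in cerebellum. Emx1, which shapes the dorsal telencephalon and stays on in cortical excitatory neurons, had a lowest, median and highest level of 17.2, 19.4 and 21.7 CPM in cortex, 1.25, 3.45 and 5.42 CPM in striatum and 0.0406, 0.18 and 0.306 CPM in cerebellum. All cortex libraries stood above every striatum library, and all striatum libraries above every cerebellum library. The log2 differences were 2.49 (SE 0.167, adjusted p = 1.43e-18) between cortex and striatum, 6.73 (SE 0.236, adjusted p = 4.25e-32) between cortex and cerebellum and 4.24 (SE 0.249, adjusted p = 4.39e-22) between striatum and cerebellum. Satb1, a chromatin organiser needed by maturing interneurons, had a lowest, median and highest level of 89.3, 106 and 126 CPM in cortex, 27.7, 37.8 and 49.2 CPM in striatum and 27.5, 29 and 34.2 CPM in cerebellum. Its cortex values did not overlap with the other regions, and the log2 difference was 1.54 (SE 0.0713, adjusted p = 6.57e-25) against striatum and 1.89 (SE 0.0721, adjusted p = 2.26e-30) against cerebellum. Tshz3, whose promoter is printed above, had a lowest, median and highest level of 25.2, 32 and 37 CPM in cortex, 6.77, 10.8 and 13.2 CPM in striatum and 10.9, 12.4 and 14.3 CPM in cerebellum. It stood apart in cortex, by 1.54 (SE 0.0945, adjusted p = 4.11e-20) against striatum and 1.34 (SE 0.0934, adjusted p = 6.08e-19) against cerebellum, while its striatum and cerebellum ranges overlapped and that difference of -0.20 (SE 0.095, adjusted p = 0.0525) was not called, though it was without PON2-deficient striatum male 5, at an adjusted p of 0.0497. Otx1, a factor of deep-layer cortical neurons, had a lowest, median and highest level of 6.15, 7.1 and 8.46 CPM in cortex, 1.62, 3.11 and 4.77 CPM in striatum and 0.177, 0.339 and 0.524 CPM in cerebellum, in falling order with no overlap between regions. Its log2 difference was 1.20 (SE 0.141, adjusted p = 2.96e-10) for cortex against striatum and 4.36 (SE 0.177, adjusted p = 3.92e-29) for cortex against cerebellum. Lhx2, which selects cortical over neighbouring fates, had a lowest, median and highest level of 65.1, 68.4 and 72.3 CPM in cortex, 26.8, 31.2 and 38.6 CPM in striatum and 0.352, 1.19 and 1.66 CPM in cerebellum. The cortex values were tightly bunched and lay above all striatum values, with a log2 difference of 1.14 (SE 0.149, adjusted p = 4.37e-09), and above all cerebellum values, with 6.04 (SE 0.204, adjusted p = 7.88e-33).

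The other 7 cortical members differed less from the next region. Tshz2, another teashirt factor, averaged 52.2 ± 9.91 CPM in cortex, 26 ± 6.15 in striatum and 8.25 ± 1.12 in cerebellum (SD, n = 10 each). Emx2, the relative of Emx1, averaged 10.2 ± 1.53, 6.39 ± 1.29 and 0.164 ± 0.154 CPM in the same order of regions. Both were called higher in cortex than in striatum, by 1.01 (SE 0.123, adjusted p = 8.25e-10) for Tshz2 and 0.69 (SE 0.22, adjusted p = 0.00862) for Emx2. The cofactor gene Pknox2 and the POU genes Pou3f2 and Pou6f1 each had a cortex range above both other regions, with log2 differences of 0.62, 0.56 and 0.43 against striatum. Zeb2, a zinc-finger homeobox factor that directs interneurons out of the ventral forebrain and acts in glia, was called higher in cortex by 0.33 (SE 0.0766, adjusted p = 0.000273) against striatum with overlapping ranges. Dlx1, listed as a ventral regulator because it drives the birth of GABA neurons, was nonetheless highest in wild-type cortex, at 43.1, 50.9 and 69.3 CPM, against 28, 32.6 and 58.1 CPM in striatum (lowest, median and highest). The ranges overlapped, through 1 striatum library at 58.1 CPM, and the log2 difference was 0.57 (SE 0.117, adjusted p = 5.25e-05). In all, 9 of the 12 cortical members showed no overlap between the 10 wild-type cortex libraries and the 20 others, and the same number did so over all 60 libraries of both genotypes. The share of all genes without such overlap was not counted in any region, so this count and those below describe the members only.

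**Figure D2:**
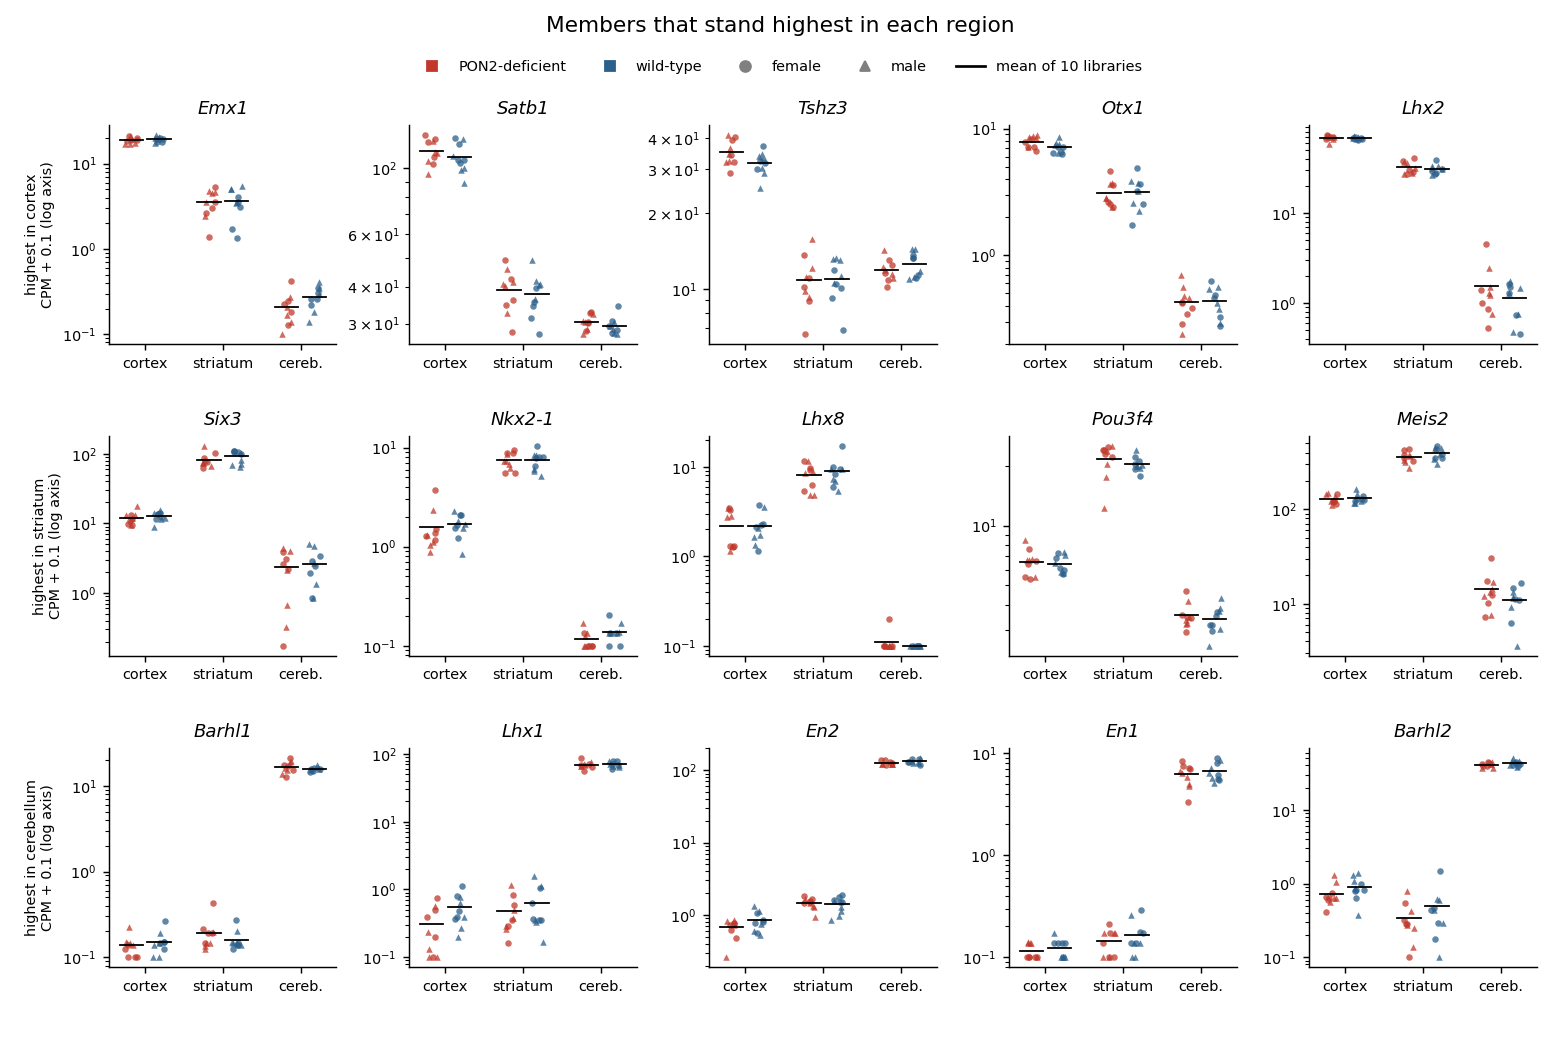
CPM + 0.1 on a log axis for the 5 members with the largest ratio of wild-type mean to the next region in cortex (top row), striatum (middle row) and cerebellum (bottom row), by region, for PON2-deficient (red) and wild-type (blue) libraries, with circles for females, triangles for males and a line at the mean of 10 libraries. In each panel the libraries of the named region lie above all wild-type libraries of the other regions, and red and blue points overlap in every region, with 2 or more PON2-deficient libraries above the wild-type range for Lhx2 and Meis2 in cerebellum and Nkx2-1 in cortex.

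The striatal members were led by genes of the ventral forebrain. Of the 9 genes listed for that role, 1 was called higher and 6 lower in cortex than in striatum, and all 9 were called higher in striatum than in cerebellum. Against cerebellum, 8 were called higher in cortex and 1, Pbx3, lower, by -0.58 (SE 0.112, adjusted p = 7.84e-06). Six3, which is needed for striatal projection neurons of the indirect pathway, had a lowest, median and highest level of 8.9, 12.8 and 15.6 CPM in cortex, 63.6, 101 and 111 CPM in striatum and 0.751, 2.51 and 4.95 CPM in cerebellum. The 3 ranges did not overlap, and the log2 difference was -2.85 (SE 0.233, adjusted p = 2.03e-15) for cortex minus striatum and 5.17 (SE 0.271, adjusted p = 3.74e-24) for striatum minus cerebellum. Nkx2-1, the selector of the medial ganglionic eminence, had a lowest, median and highest level of 0.736, 1.57 and 2.18 CPM in cortex, 5.04, 7.78 and 10.2 CPM in striatum and 0, 0.0358 and 0.104 CPM in cerebellum. Its levels were low even in striatum, yet no cortex library reached the lowest striatum library, and the cortex minus striatum difference was -2.21 (SE 0.19, adjusted p = 1.19e-14). Lhx8, which acts with Nkx2-1 in cholinergic neurons, had a lowest, median and highest level of 1.03, 1.98 and 3.6 CPM in cortex, 5.32, 8.72 and 16.8 CPM in striatum and 0, 0 and 0 CPM in cerebellum. It stood apart in striatum by -2.07 (SE 0.255, adjusted p = 5.57e-09) for cortex minus striatum, and it had 0 counts in all 10 wild-type cerebellum libraries. At a floor of 3 counts over the whole group, which is 0.0104 CPM, Lhx8 was at least 199-fold higher in wild-type cortex and at least 845-fold higher in wild-type striatum than in wild-type cerebellum, and the lower ends of the 2-sided 95% counting intervals were 162 and 688. Pou3f4, an X-linked POU factor of the striatal anlage, had a lowest, median and highest level of 5.59, 6.21 and 7.23 CPM in cortex, 17.6, 20.001 and 23.8 CPM in striatum and 2.39, 3.24 and 4.21 CPM in cerebellum, with no overlap between striatum and the rest. Its log2 difference was -1.68 (SE 0.0937, adjusted p = 1.18e-21) for cortex minus striatum and 2.63 (SE 0.0986, adjusted p = 9.58e-31) for striatum minus cerebellum. Meis2, a TALE factor of striatal projection neurons, had a lowest, median and highest level of 118, 128 and 166 CPM in cortex, 305, 386 and 465.6 CPM in striatum and 3.49, 11.2 and 16.3 CPM in cerebellum. Striatum lay above cortex and cortex above cerebellum in every library, with differences of -1.57 (SE 0.156, adjusted p = 1.62e-12) for cortex minus striatum and 5.19 (SE 0.186, adjusted p = 1.04e-31) for striatum minus cerebellum.

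The other 8 striatal members spanned a wide range of differences. Zfhx3 and Pbx3, which are on in maturing striatal neurons, and Pou3f1 were called lower in cortex than in striatum by log2 differences of -1.34, -1.81 and -1.19, and their wild-type striatum ranges lay above those of the other regions. Nkx6-2, a factor of maturing oligodendrocytes, averaged 11.4 ± 1.68 CPM in cortex, 20.7 ± 3.59 in striatum and 9.89 ± 1.68 in cerebellum. Zeb1, Zfhx4 and Pbx2 differed by less, with cortex minus striatum values of -0.55, -0.53 and -0.45. Gbx2, listed as a hindbrain regulator for its role at the midbrain-hindbrain boundary, was the exception to its list: it had a lowest, median and highest level of 0.193, 0.365 and 4.84 CPM in cortex, 0.701, 1.94 and 5.3 CPM in striatum and 0, 0.029 and 0.0611 CPM in cerebellum. It was called higher in striatum than in cerebellum by 5.74 (SE 0.58, adjusted p = 5.9e-13), and the cortex and striatum ranges overlapped. Its cortex minus striatum difference was -1.45 (SE 0.39, adjusted p = 0.00171), and its cortex minus cerebellum difference 4.29 (SE 0.638, adjusted p = 3.76e-08). Without wild-type cortex male 1, the library at 4.84 CPM, these were -2.07 and 3.68. Dlx2, the neighbour of Dlx1 on chromosome 2, had 5.78, 6.82 and 10.8 CPM in wild-type cortex and 4.97, 7.77 and 9.77 CPM in wild-type striatum, a difference of -0.054 (SE 0.13, adjusted p = 0.774) that was not called. The 10 wild-type cerebellum libraries held 2 counts of Dlx2 in all, so that the ratio to cerebellum was 1.04e+03 for cortex (95% counting interval 287 to 8.56e+03) and 1.08e+03 for striatum (299 to 8.92e+03). These intervals and floors cover counting error only. Striatum stood apart from both other regions in 11 members among the wild-type libraries and in 9 over all 60, where Zeb1 and Pbx2 overlapped.

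By the ratio of a member's mean to the next region, the cerebellar members reached the largest values of the 3 regions. Of the 12 genes listed for midbrain, hindbrain and cerebellum, 11 were called lower in cortex than in cerebellum and 11 lower in striatum than in cerebellum, beside 7347 and 7404 of 20387 genes and all by log2 differences beyond 1, and Gbx2 was the 1 called the other way. Barhl1, a factor of the rhombic lip that forms granule neurons, had a lowest, median and highest level of 0, 0.0466 and 0.168 CPM in cortex, 0.0252, 0.047 and 0.175 CPM in striatum and 14.4, 15.7 and 17.2 CPM in cerebellum. The striatum and cerebellum means differed 259-fold, and the log2 differences were -8.17 (SE 0.216, adjusted p = 7.3e-38) for cortex minus cerebellum and -7.93 (SE 0.211, adjusted p = 9.89e-38) for striatum minus cerebellum. Lhx1 had a lowest, median and highest level of 0.1, 0.34 and 1.01 CPM in cortex, 0.0675, 0.262 and 1.51 CPM in striatum and 59.8, 69.6 and 79 CPM in cerebellum. No forebrain library came near the cerebellar range, and the difference was -7.03 (SE 0.253, adjusted p = 1.4e-31) for striatum minus cerebellum. En2, an engrailed factor that patterns the cerebellar lobes, had a lowest, median and highest level of 0.429, 0.689 and 1.24 CPM in cortex, 0.74, 1.42 and 1.77 CPM in striatum and 119, 131 and 149 CPM in cerebellum. It was detected in every forebrain library, and the difference was -7.48 (SE 0.11, adjusted p = 3.05e-49) for cortex minus cerebellum. Its partner En1 had a lowest, median and highest level of 0, 0.0182 and 0.0728 CPM in cortex, 0, 0.0383 and 0.191 CPM in striatum and 5.04, 6.16 and 8.88 CPM in cerebellum. It differed by -8.00 (SE 0.326, adjusted p = 1.03e-27) for cortex minus cerebellum, and by -9.04 without wild-type cortex male 2. Barhl2 had a lowest, median and highest level of 0.27, 0.752 and 1.31 CPM in cortex, 0, 0.338 and 1.38 CPM in striatum and 38.3, 42.5 and 50.8 CPM in cerebellum. It differed by -5.75 (SE 0.209, adjusted p = 2.59e-31) for cortex minus cerebellum, and within the forebrain it was called higher in cortex than in striatum, by 1.05 (SE 0.308, adjusted p = 0.0042).

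The Iroquois genes Irx1, Irx2, Irx3 and Irx5 lie as the pairs Irx1 with Irx2 on chromosome 13, 665 kb apart, and Irx3 with Irx5 on chromosome 8, 556 kb apart. Their wild-type cerebellum means were 9.37, 5.88, 10.4 and 4.42 CPM, and each gene had a cerebellum range above every forebrain library. The cortex minus cerebellum differences were -3.99, -5.13, -4.98 and -5.27. Between cortex and striatum all 4 had negative differences, and Irx1, Irx3 and Irx5 were called, by -0.73 (SE 0.289, adjusted p = 0.0343), -0.50 (SE 0.196, adjusted p = 0.0339) and -0.93 (SE 0.328, adjusted p = 0.0182). These calls were close to the threshold and rested on single wild-type libraries, with adjusted p values of up to 0.106 for Irx1, 0.103 for Irx3 and 0.0880 for Irx5 when 1 was left out. Irx1 lost its call without cortex female 1, 2 or 3, cortex male 2 or 4, striatum female 2 or 4, or striatum male 2 or 3. Irx3 lost it without cortex female 4 or 5, cortex male 4 or 5, striatum female 3 or 5, or striatum male 3 or 5, and Irx5 without striatum male 3. Irx5 averaged 0.117 CPM in cortex and 0.212 CPM in striatum, and was too low to be tested within either region alone. Lhx5, which acts with Lhx1 in Purkinje cells, averaged 15.7 ± 1.05 CPM in cerebellum and differed by -4.87 (SE 0.38, adjusted p = 5.6e-17) for striatum minus cerebellum. Meis1, a TALE factor of granule neurons, averaged 5.67 ± 2.01 CPM in cortex, 15.4 ± 3.05 in striatum and 48.3 ± 2.64 in cerebellum, and all 3 region differences were called. Hopx, an atypical homeodomain protein that does not bind DNA and marks astroglia, averaged 45 ± 7.77, 21.5 ± 4.47 and 174 ± 14.5 CPM in the same order, again with all 3 differences called. In 12 of the 19 cerebellar members the 10 wild-type cerebellum libraries did not overlap with any forebrain library, and so it was over all 60.

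The other cerebellar members differed less or varied more. Lhx9, listed with the dorsal forebrain, went against its list, with a lowest, median and highest level of 0.102, 0.924 and 3.66 CPM in cortex, 0.142, 1.13 and 5.71 CPM in striatum and 1.12, 5.08 and 7.41 CPM in cerebellum. Its ranges overlapped in all regions, and it was called lower in cortex than in cerebellum, by -1.97 (SE 0.488, adjusted p = 0.00034), and lower in striatum than in cerebellum, by -1.30 (SE 0.469, adjusted p = 0.0116). Without wild-type striatum male 3 the striatum minus cerebellum difference was -2.33 (adjusted p = 2.28e-05). Prox1, a factor of granule neurons of the hippocampus and of interneurons, averaged 16.7 ± 3.04 CPM in cortex, 28.7 ± 8.42 in striatum and 47.3 ± 6.37 in cerebellum. Pou2f1, Nkx2-2, Zfhx2, Pknox1 and Tgif2 were called lower in both forebrain regions than in cerebellum, with cortex minus cerebellum values of -0.997, -0.78, -0.79, -0.55 and -0.85. Pou3f3 was called lower in cerebellum than in both forebrain regions and did not separate those, at 111 ± 7.31 CPM in cortex, 118 ± 10.3 in striatum and 46.9 ± 2.57 in cerebellum. Tshz1 showed the same order in a smaller range, with a striatum minus cerebellum difference of 0.31 (SE 0.0697, adjusted p = 7.46e-05). Meis3 had the flattest profile of the 50 genes among the 3 wild-type differences, at 28.1 ± 2.16, 29.2 ± 2.19 and 28.4 ± 3.12 CPM, with none of them called and the largest at -0.053 (SE 0.0644, adjusted p = 0.546). Adnp, a zinc-finger homeobox chromatin factor, was called in none of the 3 comparisons, and Tgif1 was called between cortex and cerebellum, by -0.66 (SE 0.156, adjusted p = 0.000188). Without PON2-deficient striatum male 5 in the shared fit, the striatum minus cerebellum differences of both were also called, at -0.34 (adjusted p = 0.00859) for Adnp and -0.33 (adjusted p = 0.0480) for Tgif1. By list, 1 of the 6 TALE cofactors was called higher and 2 lower in cortex than in striatum, of the 6 POU factors 2 and 3, of the 3 glial-lineage factors 1 and 2, and of the 5 zinc-finger and broadly used factors 0 and 4.

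Levels of different genes can be set side by side only per length of exon. On that scale Hopx led in wild-type cerebellum with 115 CPM per kb, ahead of En2 with 37.6. Meis2 led in wild-type striatum with 32.5 CPM per kb, ahead of Pbx2 with 19 and Pou3f1 with 18.6. In wild-type cortex Hopx again stood first with 29.7 CPM per kb, followed by Pou6f1 with 18.4, so a regional marker such as Emx1, at 8.83, was not among the most abundant members there. The files do not say whether counting used the strand, and 20 members share exon bases with a gene on the opposite strand, among them Six3 with Six3os1, Dlx1 with Dlx1as and Emx2 with Emx2os. If it did not, reads of such pairs cannot be told apart, and the levels of these members are uncertain to that extent. A further uncertainty holds for the 5 members that share exon bases with a gene on their own strand.

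The spread within a region was uneven. Of the members that averaged 1 CPM or more in a region, ranked by the SD of log2(CPM + 0.1), Lhx9 was the most variable in wild-type cortex and in wild-type striatum, with 0.102 to 3.66 CPM over the 10 cortex libraries and 0.142 to 5.71 CPM over the 10 striatum libraries. Tgif2 (0.852 to 4.13 CPM) and Lhx8 (1.03 to 3.6 CPM) followed in cortex, where Gbx2 (0.193 to 4.84 CPM) was under that mean, and Gbx2 (0.701 to 5.3 CPM) and Emx1 (1.25 to 5.42 CPM) in striatum. In wild-type cerebellum Six3 (0.751 to 4.95 CPM), Lhx9 (1.12 to 7.41 CPM) and Lhx2 (0.352 to 1.66 CPM) varied most. Lhx9 and Gbx2 are both known as factors of thalamic neurons. The summed level of 10 thalamic marker genes was 146 to 278 CPM in PON2-deficient striatum and 141 to 562 CPM in wild-type striatum, with 2 of the 10 higher on average in PON2-deficient striatum and none of the 10 under 1 CPM on average in either. In cerebellum the sum was higher, at 791 to 867 CPM in PON2-deficient and 826 to 889 CPM in wild-type libraries, so these genes are not particular to thalamus. In cortex the highest sum, 280 CPM, was that of wild-type male 1, which also had the highest Lhx9 and Gbx2 of wild-type cortex. The 5 of 20 striatum libraries with the highest sums, at 278 to 562 CPM against at most 241 CPM in the other 15, were the same 5 that had the highest Lhx9, at 2.00 to 5.71 CPM against 0.142 to 1.49 CPM. They included 4 of the 5 with the highest Gbx2, at 2.27 to 5.30 CPM in these libraries against 0.567 to 2.94 CPM in the rest. These 5 were PON2-deficient female 2 and wild-type females 2, 3 and 5 and male 3. The part of thalamic tissue in the cortical and striatal levels of both genes was not tested.

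**Figure D3:**
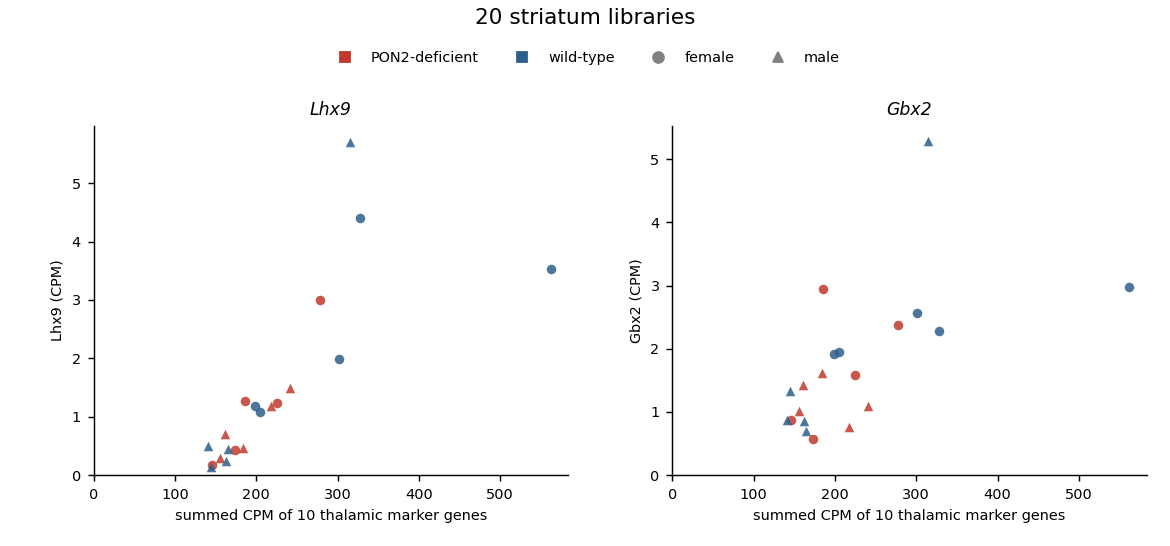
Level of Lhx9 (left) and Gbx2 (right) in CPM against the summed CPM of 10 thalamic marker genes in the 20 striatum libraries, PON2-deficient in red and wild-type in blue, with circles for females and triangles for males. The 5 libraries at 278 CPM or more on the x axis hold the 5 highest Lhx9 values and 4 of the 5 highest Gbx2 values, and 4 of these libraries are wild-type.

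Nearly the same regional code was called in PON2-deficient mice. In PON2-deficient libraries 10 members were highest in cortex, 14 in striatum and 19 in cerebellum, and 7 had no single region, against 12, 13, 19 and 6 in wild-type libraries. The highest region was the same in both genotypes for 47 of 50 members. The share of all genes with the same highest region was not counted, so this count describes the members only. Dlx1 and Zeb2 were highest in cortex in wild-type mice and in no single region in PON2-deficient mice, and Dlx2 was highest in striatum in PON2-deficient mice and in no single region in wild-type mice. Between cortex and striatum 38 members were called in PON2-deficient mice (12 higher and 26 lower in cortex), beside 47.4% of all genes, and 32 were called the same way in both genotypes. These 32 were out of 37 called in wild-type, where 82.8% of all genes called in wild-type were called the same way in PON2-deficient mice. The 26 include En1, Barhl1 and Irx5, which were too low to be tested within cortex or striatum alone and entered this fit through cerebellum, and DESeq2 and limma on the deposited values did not call En1 and Barhl1. Between cortex and cerebellum 44 were called (23 higher, 21 lower), beside 71.9% of all genes, and all 44 were called the same way in wild-type. Between striatum and cerebellum 47 members were called (27 higher, 20 lower), beside 72.7% of all genes. Of the 47, 46 were called the same way in wild-type, and the 1 other was Adnp. Of all genes called in wild-type, 91.8% between cortex and cerebellum and 91.4% between striatum and cerebellum were called the same way in PON2-deficient mice. Without PON2-deficient striatum male 5 the counts were 38, 44 and 46: Adnp between striatum and cerebellum and Barhl1 between cortex and striatum were no longer called in PON2-deficient mice, and Irx1 between cortex and striatum was. All 3 calls matched for 38 of 50 members, where they matched for 64.7% of all genes, and 0 members were called in opposite directions. Without that library the highest region was the same for 46 members and all 3 calls for 39, with 0 opposite calls. With a log2 difference of at least 1 also required, 23, 32 and 33 members were called in PON2-deficient mice, beside 8.63%, 25.4% and 26.6% of all genes. The 23 between cortex and striatum can include En1, Barhl1 and Irx5, which entered this fit through cerebellum, and were not counted without them. Across the 50 members the log2 differences in the 2 genotypes correlated with r = 0.962 for cortex minus striatum, 0.995 for cortex minus cerebellum and 0.994 for striatum minus cerebellum, against 0.819, 0.967 and 0.970 across all genes. These correlations are descriptions over genes, which are not independent, and the genotypes share no library. The members' region differences were also larger in size than those of all genes, which by itself raises r. No greater stability of the members is read from the higher values.

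**Figure D4:**
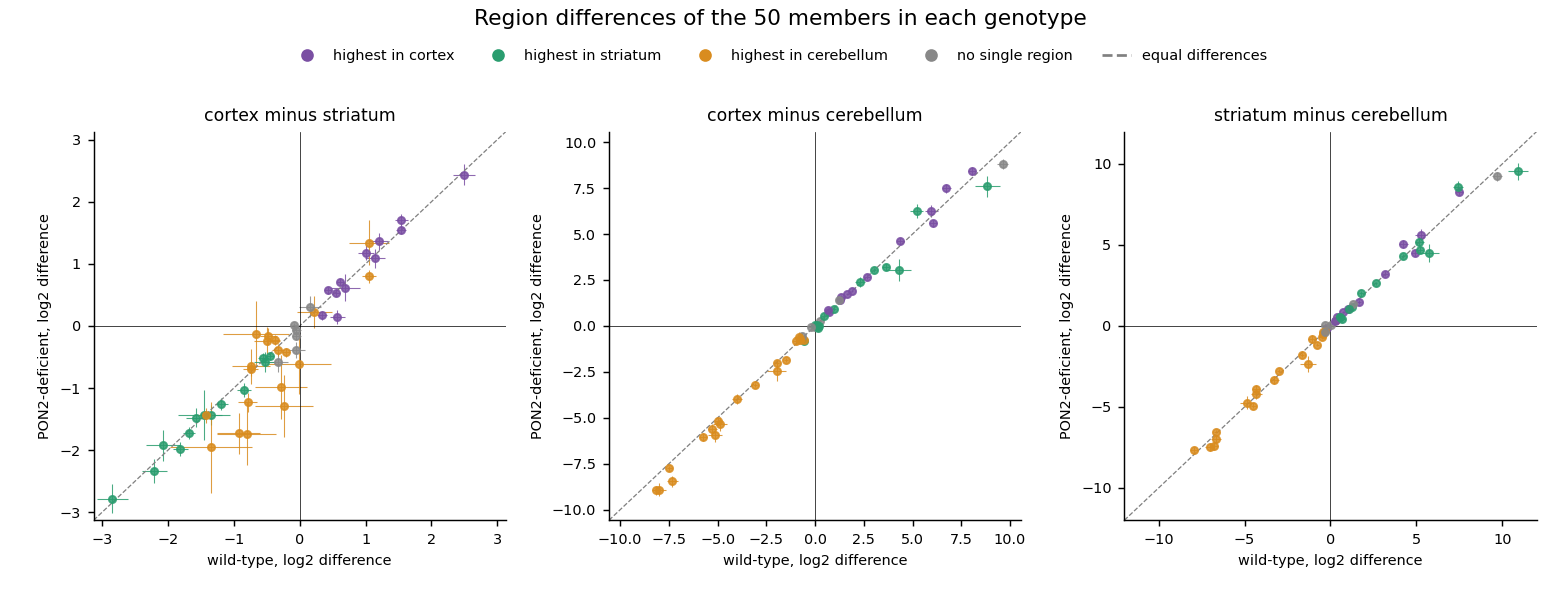
Log2 difference between regions in PON2-deficient libraries (y axis) against that in wild-type libraries (x axis) for the 50 members, with bars of 1 SE, coloured by the wild-type region they were highest in, and a dashed line of equal differences. Members lie along the line in all 3 panels, and the genes farthest from it between cortex and striatum, such as Barhl1 and Irx2, are low in both regions.

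The difference of the differences was tested directly and was called for 0 of 50 members in each of the 3 region pairs. All genes called were 0 (0%) for cortex minus striatum, 3 (0.0147%) for cortex minus cerebellum and 2 (0.00981%) for striatum minus cerebellum. An unadjusted p under 0.05 was reached by 3, 5 and 2 members, and DESeq2 and limma also called 0 in each. Counts at an unadjusted p, here and below, are given without the share of all genes at that threshold, and no result is read from them. Dlx1 had the smallest p for cortex minus striatum. It had 39.4, 47 and 56.9 CPM in PON2-deficient cortex and 21.1, 45.9 and 54.5 CPM in PON2-deficient striatum, against 43.1, 50.9 and 69.3 CPM in wild-type cortex and 28, 32.6 and 58.1 CPM in wild-type striatum. The ranges of the 2 regions overlapped in both genotypes, and the difference between genotypes was -0.43 (SE 0.165, adjusted p = 0.659). Pou3f3 had the smallest p for cortex minus cerebellum, with 0.14 (SE 0.0564, adjusted p = 1), and Prox1 for striatum minus cerebellum, with -0.40 (SE 0.151, adjusted p = 0.751). Across the members the 95% interval of this difference lay within 2-fold either way for 41, 35 and 35 of 50, and reached past it for the rest, so in those a 2-fold difference lies inside the interval.

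For the leading marker of each region, the genotypes overlapped and the difference was not called. Emx1 had 16.7, 18.7 and 21.1 CPM in PON2-deficient cortex and 17.2, 19.4 and 21.7 CPM in wild-type cortex, and its difference of -0.04 (SE 0.051, adjusted p = 0.822) had a 95% interval of -0.15 to 0.066. Six3 had 63.1, 76 and 128 CPM in PON2-deficient striatum and 63.6, 101 and 111 CPM in wild-type striatum. Here the ranges overlapped for the most part. The Six3 difference over both sexes was -0.14 (SE 0.111, adjusted p = 0.995) with an interval of -0.37 to 0.09. The pattern was not the same in the sexes, whose values are given further below. Most PON2-deficient females lay below every wild-type female, while the males of the genotypes overlapped. The highest value, 128 CPM, came from PON2-deficient male 5, whose precision weights averaged 0.0527 of the median of its region. Six3 was not called in either sex alone, nor was its difference between the sexes. Barhl1 had 12.5, 16.4 and 21.2 CPM in PON2-deficient cerebellum and 14.4, 15.7 and 17.2 CPM in wild-type cerebellum, where the wild-type values lay inside the wider PON2-deficient range, and the difference was 0.082 (SE 0.0774, adjusted p = 0.76) with an interval of -0.079 to 0.24. Each of these intervals lies within 1.5-fold either way.

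Within each region, PON2-deficient and wild-type libraries were compared over both sexes, in 1 fit per region of 20 libraries. The members that passed the filter on low counts were 46 in cortex, 47 in striatum and 43 in cerebellum. En1, Barhl1, Irx2 and Irx5 were too low to be tested in cortex, En1, Barhl1 and Irx5 in striatum, and Emx1, Emx2, Dlx1, Dlx2, Lhx8, Nkx2-1 and Gbx2 in cerebellum. No member was called by edgeR in any of the 3 comparisons, beside 6 genes (0.0316%) called in cortex, 2 (0.0105%) in striatum and 6 (0.0321%) in cerebellum, where 0.0107% also had a log2 difference of at least 1. An unadjusted p under 0.05 was reached by 7 members in cortex, 2 in striatum and 2 in cerebellum, limma on the deposited values called 0 in each, and DESeq2 called 2, 0 and 1. The 95% interval lay within 2-fold either way for 42 of 46 members in cortex, 41 of 47 in striatum and 41 of 43 in cerebellum, and within 1.5-fold for 35, 37 and 37. The median size of the difference was 0.12, 0.083 and 0.073 on the log2 scale, beside 0.064, 0.073 and 0.066 for all genes tested.

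**Figure D5:**
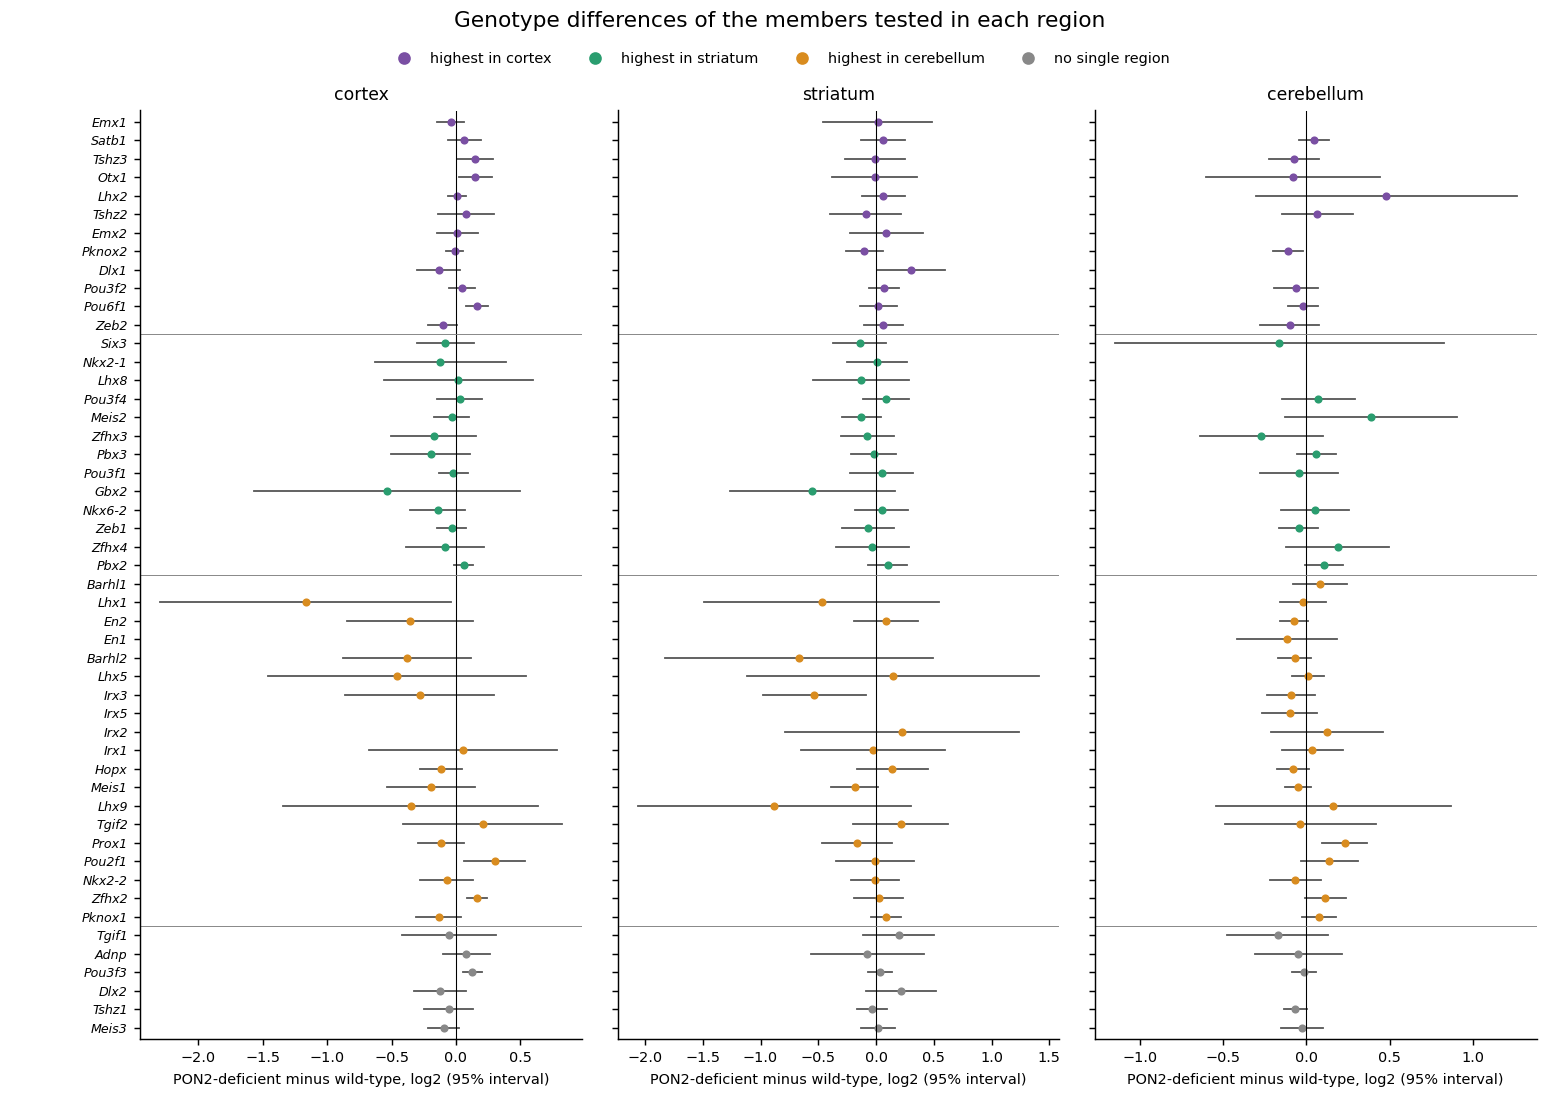
PON2-deficient minus wild-type log2 difference with its 95% interval for each member tested in cortex (left), striatum (middle) and cerebellum (right), ordered and coloured by the wild-type region it was highest in. Intervals are narrow where a member is well expressed and wide where it is low, as for Lhx1 and Gbx2 in cortex, and no difference passed the adjusted threshold.

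In cortex the 3 members with the smallest p were Zfhx2, Pou6f1 and Pou3f3, all with higher means in PON2-deficient libraries. Zfhx2, a large zinc-finger homeobox factor, had 84.6, 94.1 and 98.9 CPM in PON2-deficient cortex and 76.8, 81.8 and 93.4 CPM in wild-type cortex. The upper part of the wild-type range reached into the PON2-deficient range, and the log2 difference of 0.16 (SE 0.0387, adjusted p = 0.0942) missed the threshold. DESeq2 called it, at an adjusted p of 0.0131. Pou6f1 had 132, 139.6 and 170.3 CPM in PON2-deficient cortex and 113, 127 and 139.6 CPM in wild-type cortex, a difference of 0.16 (SE 0.0416, adjusted p = 0.115) that DESeq2 called at an adjusted p of 0.0280. Pou3f3, a POU factor of upper cortical layers, had 114, 121 and 130.4 CPM in PON2-deficient cortex and 103, 109 and 121 CPM in wild-type cortex, with 0.13 (SE 0.0362, adjusted p = 0.158). All 3 differences are small, and the ranges of the 2 genotypes overlapped.

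In striatum the smallest p values belonged to Irx3, Dlx1 and Meis1. Irx3 was low, with 0.191, 0.272 and 0.453 CPM in PON2-deficient striatum and 0.266, 0.479 and 0.624 CPM in wild-type striatum, and a difference of -0.54 (SE 0.214, adjusted p = 0.916). Dlx1 had 0.30 (SE 0.141, adjusted p = 0.995) on the levels given above. Meis1 had 10.9, 12.2 and 17.5 CPM in PON2-deficient striatum and 10.5, 15.2 and 21.1 CPM in wild-type striatum, with -0.18 (SE 0.0977, adjusted p = 0.995). None of the 3 ranges separated the genotypes.

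In cerebellum Prox1 had 48.4, 55.9 and 63.4 CPM in PON2-deficient libraries and 35.4, 46.8 and 59 CPM in wild-type libraries, a difference of 0.23 (SE 0.0649, adjusted p = 0.162). By sex, the values were 57.7, 55.5, 63.4, 56.4 and 59.6 CPM in PON2-deficient males and 44.1, 47.1, 59, 35.4 and 43 CPM in wild-type males. Wild-type male 3, at 59 CPM, lay within the PON2-deficient range and the other 4 wild-type males below it. Without that library edgeR called Prox1 over both sexes, at 0.29 (adjusted p = 0.0188), and in males, at 0.47 (adjusted p = 0.0100), and DESeq2 called it with all libraries at adjusted p values of 0.0432 over both sexes and 0.0213 in males. In females the values were 53.4, 48.4, 56.3, 54.1 and 51.1 CPM in PON2-deficient mice and 53.6, 49.4, 50.2, 45.2 and 46.4 CPM in wild-type mice, with overlapping ranges. Pknox2 followed, with -0.11 (SE 0.044, adjusted p = 0.334), and Tshz1, with -0.067 (SE 0.0329, adjusted p = 0.46).

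Markers of other tissue were uneven between genotypes. Of 10 choroid plexus genes, 0 had a higher mean in PON2-deficient cortex, with sums of 197 to 889 CPM in PON2-deficient and 209 to 885 CPM in wild-type libraries, and 0 in PON2-deficient cerebellum, with 146 to 4121 CPM in PON2-deficient and 915 to 3511 CPM in wild-type libraries. In striatum 10 of 10 had a higher mean in PON2-deficient libraries, with 211 to 2990 CPM in PON2-deficient and 228 to 1812 CPM in wild-type libraries. Kcne2, Cldn2 and Otx2 averaged under 1 CPM in PON2-deficient cortex, and none of the 10 did in the other groups. Of 10 ependymal genes 0, 10 and 0 had a higher mean in PON2-deficient cortex, striatum and cerebellum. Of 10 meningeal fibroblast genes 0 had a higher mean in PON2-deficient cerebellum, with sums of 158 to 298 CPM in PON2-deficient and 229 to 294 CPM in wild-type libraries. The summed level of 6 hypothalamic genes in cortex had a median of 5.33 CPM in PON2-deficient and 35.5 CPM in wild-type libraries, with overlapping ranges of 2.11 to 148 CPM and 1.98 to 109.8 CPM. The part of these last markers in the results was not tested. With the choroid plexus or the thalamic markers as a covariate, edgeR again called 0 members in every genotype and sex comparison.

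Each sex was also tested on its own. In females edgeR called 0 members in cortex (0.00527% of all genes called), striatum (0.00527%) and cerebellum (0.00534%), with 3, 4 and 0 members at an unadjusted p under 0.05, and DESeq2 and limma on the deposited values called 0. In males it called 0 in cortex (0.148%), striatum (0.00527%) and cerebellum (0.0160%), with 8, 2 and 3 at an unadjusted p under 0.05, where DESeq2 called 3, 0 and 1 and limma 0. The 3 in male cortex were Pou2f1, Pou6f1 and Zfhx2. Pou2f1, a broadly used octamer-binding factor, had 29.1, 43.6, 27.2, 29.7 and 42 CPM in PON2-deficient males and 21, 25.7, 17.3, 25.9 and 20.4 CPM in wild-type males. The 2 sets did not overlap, the edgeR difference was 0.64 (SE 0.164, adjusted p = 0.0945), and the adjusted p of DESeq2 was 0.0137. In females the 2 sets overlapped, at 31.5, 41.4, 26.3, 29.4 and 22.9 CPM in PON2-deficient and 28.5, 33.6, 37, 32.2 and 23.9 CPM in wild-type mice, and the male minus female difference of the genotype effect, 0.67 (SE 0.231, adjusted p = 0.37), was not called. That test of the difference between sexes called 0 members in every region and 0% of all genes, with 1, 5 and 1 members at an unadjusted p under 0.05 in cortex, striatum and cerebellum, and DESeq2 and limma called 0 members.

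Males and females were compared over both genotypes, with 0 members called in cortex (0.0896% of all genes called), striatum (0.105%) and cerebellum (0.118%) and 5, 5 and 2 at an unadjusted p under 0.05. DESeq2 called 0 in each. Also with a log2 difference of at least 1, edgeR called 0.0422%, 0.0422% and 0.0588% of all genes. In striatum 1 member was called in each of 2 other fits. Prox1 was called with all 60 libraries in 1 fit, at -0.45 (adjusted p = 0.0289). Its values were 25.4, 29, 25.2, 23.9 and 11.1 CPM in PON2-deficient males and 19.2, 24.8, 29.2, 21.5 and 16.5 CPM in wild-type males, against 25.4, 34.1, 30.4, 25.8 and 19.4 CPM in PON2-deficient females and 29.6, 33.6, 39.2, 30.6 and 42.6 CPM in wild-type females. Six3 was called by limma on the deposited values and weights, at -0.35 (adjusted p = 0.0417). Its values were 74.9, 66.5, 74.1, 73.1 and 128 CPM in PON2-deficient males and 72.4, 63.6, 69.6, 80.7 and 103 CPM in wild-type males, against 78.1, 86.4, 101, 63.1 and 77.1 CPM in PON2-deficient females and 111, 105, 98.4, 106 and 109 CPM in wild-type females. Most of the low Six3 values came from males, with PON2-deficient male 5 as the highest of all 20 libraries.

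Homeobox genes outside the 50 were listed for comparison, and 63 were tested between regions. In wild-type mice 27 were called between cortex and striatum, 51 between cortex and cerebellum and 51 between striatum and cerebellum. Of all genes, 43.3%, 71.8% and 71.9% were called in the same 3 comparisons. By edgeR none was called between genotypes over both sexes, with 6, 1 and 4 at an unadjusted p under 0.05 in cortex, striatum and cerebellum. Among the largest called rises in cortex over striatum were Pax2 and Six2 (2.83 and 2.55 on the log2 scale), both under 1 CPM on average in both regions, and the largest falls were Shox2, Isl1 and Onecut2 (-3.21, -2.36 and -2.07). Isl1, a factor of striatal direct-pathway and cholinergic neurons, averaged 2.87 ± 0.659 CPM in cortex, 14.9 ± 2.48 in striatum and 0.154 ± 0.25 in cerebellum. Against cerebellum, Dlx6 and Dlx5, which act in GABA neurons of the forebrain, were among the genes that rose most in both cortex and striatum. Dlx6 averaged 10.6 ± 1.51 CPM in cortex and 40.6 ± 5.51 in striatum, and 7 of the 10 cerebellum libraries had no count of it. Tlx3, Pax3 and Uncx fell most in cortex against cerebellum, and Tlx3, Pax3 and Pax2 in striatum against cerebellum. Uncx averaged 0.669 ± 1.04 CPM in cortex, 0.469 ± 0.555 in striatum and 39.6 ± 6.12 in cerebellum (SD, n = 10 each).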

How the data were processed

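RNA of bulk cortex, striatum and cerebellum was sequenced as 150-base read pairs, per the labels' protocols. The authors deposited expected counts per gene for 60 libraries, with log2 CPM values and precision weights (a score with no fixed range). Salmon, edgeR and limma are named, per the submitters' processing notes. Versions and genome build were not given in the sources used here. Recomputed voom values of the counts differ from the deposited log2 values by at most 5.33e-14.

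The expected counts were rounded and tested with edgeR 4.0.16 (quasi-likelihood, R 4.3.3) after TMM scaling and filterByExpr, with Benjamini-Hochberg adjustment over all genes. Regions were compared in 1 fit of 60 libraries with 12 group means (20387 genes). Genotypes and sexes were compared in 1 fit of 20 libraries a region (18972, 18962 and 18710 genes in cortex, striatum and cerebellum). Intervals are 95%. CPM is the count over the TMM-scaled total. The code was tested on simulated data. Alternatives used DESeq2 1.42.0, limma 3.58.1, other scalings and filters, marker covariates, a replicate block and left-out libraries. Whether replicate numbers pair samples is unknown, and fits carry no block.

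The members and lists were chosen with earlier results of these data known. Genes named were the 5 members highest in each region relative to the next, any called between genotypes or sexes, the 3 smallest p-values of each genotype comparison and the 3 most variable in each wild-type region with a mean of at least 1 CPM (also the limit for the first 5), and of other homeobox genes the 3 largest rises and falls; any member could be named. Some genes that this rule picks outside the 50 are not reported here. Gene positions and exons came from GENCODE M21 and promoters from RefSeq (GRCm38.p6).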

Additional observations from a re-analysis of the deposited data

Results flagged for a closer look

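Among 243 sets of 10 libraries of 1 genotype and region with a mean of at least 1 CPM, 24 (9.88%) had 1 library far from the others, as a gap to the nearest of them above 0.466 of the whole range. Chance gives about 1 in 20.

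PON2-deficient striatum male 5, the library with the lowest precision weights, accounted for 6 of the 24. It was lowest for Adnp at 5.31 CPM (next 30.0), Pou6f1 at 65.8 CPM (next 87.9), Zeb1 at 42.9 CPM (next 86.6) and Zfhx2 at 58.4 CPM (next 105.9). It was highest for Nkx6-2 at 34.1 CPM (next 25.4) and Pou3f1 at 137 CPM (next 86.9).

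Another 3 fell on wild-type cortex male 2, which was highest for Pbx3 at 24.2 CPM, Tgif1 at 2.09 CPM and Tshz1 at 72.9 CPM. The same library held 347 CPM of 10 meningeal fibroblast genes, against at most 196 CPM in any other cortex library, and their part in these values was not tested. PON2-deficient cortex male 2 was highest for Six3 at 17.8 CPM and lowest for Lhx2 at 59.2 CPM. PON2-deficient cortex male 3 was highest for Pou6f1 at 170.3 CPM, and PON2-deficient cortex female 3 for Nkx2-1 at 3.66 CPM.

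In striatum, PON2-deficient female 2 was highest for Lhx9 at 2.99 CPM. Wild-type striatum male 3 was highest for Dlx1 at 58.1 CPM and Gbx2 at 5.30 CPM, wild-type striatum female 2 for Lhx8 at 16.8 CPM and wild-type striatum female 1 for Pou3f3 at 142.9 CPM.

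In cerebellum, PON2-deficient male 3 was lowest for Meis3 at 22.1 CPM and highest for Tgif1 at 2.58 CPM. PON2-deficient cerebellum female 1 was highest for Lhx2 at 4.41 CPM and PON2-deficient cerebellum female 3 for Meis2 at 30.1 CPM. Wild-type cerebellum male 4 was lowest for Adnp at 20.1 CPM and wild-type cerebellum female 4 highest for Satb1 at 34.2 CPM.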

How the results depend on the processing

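With a log2 difference of at least 1 also required, 18 members were called between cortex and striatum in wild-type mice and 23 in PON2-deficient mice. The 23 can include members too low to be tested within cortex or striatum alone. DESeq2 called 2 members in cortex, 3 in male cortex, 1 in cerebellum and 1 in male cerebellum, where edgeR called 0. It called more of all genes too, at 232 against 6 in cortex, 388 against 28 in male cortex, 242 against 6 in cerebellum and 182 against 3 in male cerebellum. Between males and females in striatum 1 member was called with all libraries in 1 fit and 1 with the deposited values in limma. The cause was not tested.

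With single wild-type libraries or PON2-deficient striatum male 5 left out, the wild-type counts ran from 34 to 38 between cortex and striatum, 44 to 45 between cortex and cerebellum and 46 to 49 between striatum and cerebellum. With single libraries of a region left out, the genotype counts ran from 0 to 1 in male cortex (Zfhx2, called without wild-type male 4), cerebellum and male cerebellum, and stayed at 0 in the other 12 genotype and sex comparisons.

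The same highest region in both genotypes was found for 45 to 47 members over the alternatives tried, with the share of all genes not counted. In these alternatives 0 members had opposite calls. Scaling by library totals moved the median of all genes by -0.11 to -0.13 (log2) in comparisons with cerebellum. With a replicate block, 36, 44 and 47 members were called in wild-type and 38, 44 and 47 in PON2-deficient mice, and 0 between genotypes or sexes. Deviations of same-numbered libraries correlated by over 0.1 in 19 of 60 pairs across regions and 9 of 30 across genotypes. The mean correlation was 0.0706 across regions, against -0.0176 for differently numbered libraries, and 0.0618 against -0.0142 across genotypes. By group, the mean was highest in male striatum (0.223) and lowest in female striatum (-0.0323), both across genotypes. Whether equal numbers mark a shared mouse or batch cannot be told from the labels. Low counts limit Barhl1, En1, Lhx8 and the Irx genes outside their own region.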
